A study of Rattus norvegicus with 4 samples.

Results

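miR-148a, miR-148b and miR-152 are 3 related microRNAs (miRNAs), short RNAs that guide Argonaute proteins to messenger RNAs through the seed, bases 2 to 8 of the mature strand. Each is cut from a hairpin precursor with 2 arms, 5p and 3p, and usually 1 arm is kept as the guide while the other, the passenger, is mostly degraded. The family comprised the 6 mature miRNAs rno-miR-148a-3p, rno-miR-148a-5p, rno-miR-148b-3p, rno-miR-148b-5p, rno-miR-152-3p and rno-miR-152-5p, taken by name from 765 rat mature miRNAs. In human and mouse the 3p arms are known to repress DNMT1, the maintenance DNA methyltransferase. miR-148a is also known as an abundant miRNA of liver, where it represses the LDL receptor.

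The study compared 4 small RNA-seq libraries, namely exosomes from hypoxic culture, exosomes from normoxic culture, hypoxic H9c2 cells and normoxic H9c2 cells. H9c2 is an immortal rat cardiomyoblast line, and both arms of the experiment used the same line, exosome-depleted serum and 48 h of culture. Hypoxia was made in a chamber with an oxygen absorber, and exosomes were pelleted from the conditioned medium by ultracentrifugation. Each condition had 1 library, so differences between conditions could not be set against replicate error and were not tested. The methods give n = 4 for the RNA extraction, and they do not say whether this counts the libraries or cultures pooled within each. The question was how low oxygen altered the miRNAs of the cells and of the exosomes they release, and miR-152-3p was 1 of the miRNAs that the study carried on to transfection.

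The authors deposited RPM, read numbers scaled to a fixed library total. In each library the values above 0 were spaced in equal steps, starting at 10 steps, so a step was taken as 1 read and a 0 as fewer than 10 reads. The miRNAs held 108860 reads in hypoxic exosomes and 13598 in normoxic exosomes, against 3578371 in hypoxic cells and 5310302 in normoxic cells. They made up 0.881% and 0.115% of the reads behind the RPM scale in the hypoxic and normoxic exosomes, and 26.9% and 51.0% in the hypoxic and normoxic cells. Ratios of RPM therefore carry this difference in total, and ratios scaled to the miRNA total are given beside them. All intervals are at 95% and hold the error of counting alone. They treat each read as independent. Reads amplified by PCR do not each stand for a separate molecule, so the intervals can be too narrow. Muscle markers were scarce in the cells. Of 7 such miRNAs 2 were listed in hypoxic and 3 in normoxic cells, with summed levels of 14.2 and 32.2 RPM. Most of this was miR-499-5p, with 12.7 RPM in hypoxic (169 reads) and 26.6 RPM in normoxic cells (277 reads). In contrast, miR-133a-3p and miR-133b-3p were listed at 0 in all 4 libraries.

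The sequences in RefSeq (GRCr8), which matched 5 of the 6 members, show what the family shares. The 3 guide arms are printed first because they have the same seed, in capitals:
rno-miR-152-3p: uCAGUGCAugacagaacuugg
rno-miR-148a-3p: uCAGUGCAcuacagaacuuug
rno-miR-148b-3p: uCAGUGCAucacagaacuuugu
rno-miR-152-5p: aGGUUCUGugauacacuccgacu
rno-miR-148a-5p: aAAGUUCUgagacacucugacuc

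Of 693 rat mature miRNAs in the RefSeq table, only the 3 guide arms had the seed CAGUGCA at bases 2 to 8. With positions counted from 1 at the 5′ end, miR-148a-3p differed from miR-152-3p by U9C, G10U and G20U, where miR-152-3p has the first base of each token. miR-148b-3p differed from miR-152-3p by G10C and G20U. miR-148b-3p differed from miR-148a-3p by C9U and U10C. The guide arms thus differ at 2 or 3 of 21 positions, and how reads that fit more than 1 of them were assigned is not given in the sources used here. The 5p arms of miR-152 and miR-148a had different seeds, and no other rat miRNA in the table had either of them. miR-148b-5p was not in the table, so its seed was not compared. The hairpin of Mir148b, shown further on, does hold the letters of the miR-148a-5p seed ahead of its 3p arm.

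The same 7 letters also stood at bases 1 to 7 of 3 miRNAs of another family, of which rno-miR-130a-3p is shown for the shift by 1 base. Here the capitals mark the shared letters, which fall 1 base earlier, so the seed of the miR-130 family is not that of miR-148 and miR-152:
rno-miR-130a-3p: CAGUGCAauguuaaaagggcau

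The precursors show where the arms sit. In the hairpins of Mir148a (chr4:81664431-81664527, minus strand) and Mir148b (chr7:136299870-136299966, plus strand) the capitals mark mature arms found in the table, both for Mir148a and the 3p arm for Mir148b:
Mir148a: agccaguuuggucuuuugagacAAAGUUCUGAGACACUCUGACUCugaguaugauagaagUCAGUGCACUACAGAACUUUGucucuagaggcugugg
Mir148b: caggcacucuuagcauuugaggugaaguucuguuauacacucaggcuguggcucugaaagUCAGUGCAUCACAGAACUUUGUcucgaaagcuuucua

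The 3p arm began at base 61 of both hairpins, each 97 bases long. The mature arms of Mir152 lie on the plus strand of chromosome 10, at chr10:82329435-82329455 for the 3p arm and chr10:82329397-82329419 for the 5p arm. In the same annotation Mir148b lies within Copz1 and Mir152 within Copz2, genes for the zeta subunits of the COPI vesicle coat, while no protein-coding gene spans Mir148a. Within 250 kb of each of the 3 hairpins the annotation has a chromobox gene (Cbx3 near Mir148a, Cbx5 near Mir148b and Cbx1 near Mir152) and a gene of the Nfe2 transcription factor family (Nfe2l3, Nfe2 and Nfe2l1 in that order). The neighbouring genes were not measured here.

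The guide arms came in the same order in all 4 libraries, miR-152-3p first, then miR-148a-3p, then miR-148b-3p. miR-152-3p, whose host in rat is Copz2, had 80.3 RPM in hypoxic exosomes (992 reads) and 6.57 RPM in normoxic exosomes (78 reads), against 1270 RPM in hypoxic cells (16874 reads) and 2406 RPM in normoxic cells (25039 reads). It ranked 18 of 144 listed miRNAs in hypoxic exosomes and 18 of 74 in normoxic exosomes, against 33 of 331 in hypoxic and 26 of 338 in normoxic cells. It was thus among the more abundant miRNAs of every library.

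miR-148a-3p, which has its own locus outside a protein-coding gene, had 38.6 RPM in hypoxic exosomes (477 reads) and 4.13 RPM in normoxic exosomes (49 reads), against 683 RPM in hypoxic cells and 1343 RPM in normoxic cells. It ranked 24 in both libraries of exosomes, 48 in hypoxic cells and 39 in normoxic cells. miR-148b-3p, encoded within Copz1, had 15.0 RPM in hypoxic exosomes (185 reads) and 1.01 RPM in normoxic exosomes, against 305 RPM in hypoxic cells and 535 RPM in normoxic cells. The normoxic exosome value of miR-148b-3p stands on 12 reads, just above the smallest number listed, and is the least certain value of the guide arms.

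The passenger arms were listed in cells only. miR-152-5p had 11.3 RPM in hypoxic cells (150 reads) and 52.5 RPM in normoxic cells (546 reads). miR-148a-5p had 18.1 RPM in hypoxic cells (241 reads) and 50.8 RPM in normoxic cells (529 reads). miR-148b-5p had 6.02 RPM in hypoxic cells (80 reads) and 11.3 RPM in normoxic cells (118 reads). In normoxic cells the 5p arms of miR-152 and miR-148a were thus within a few RPM of each other, while in hypoxic cells miR-148a-5p had more reads. All 3 passenger arms were listed at 0 in both libraries of exosomes.

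**Figure D1:**
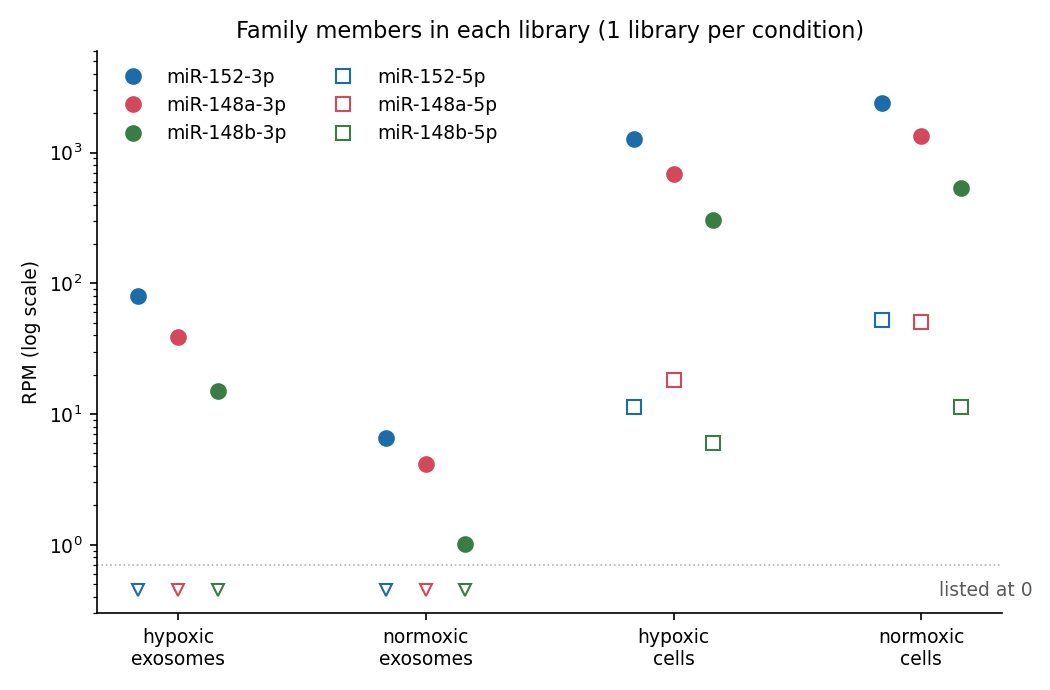
RPM (log scale) of the 6 family members in the 4 libraries, 1 library per condition. Filled circles are 3p arms, open squares 5p arms and open triangles members listed at 0. miR-152-3p was the highest member in every library, from 6.57 RPM in normoxic exosomes to 2406 RPM in normoxic cells.

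As a part of all miRNA reads, the 6 members together came to 1.52% in hypoxic exosomes (exact binomial interval 1.45% to 1.59%) and 1.02% in normoxic exosomes (0.860% to 1.21%), against 0.851% (0.842% to 0.861%) in hypoxic cells and 0.862% (0.854% to 0.870%) in normoxic cells. By this share the intervals of the 2 libraries of cells overlapped, and hypoxic exosomes were the highest of the 4.

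In hypoxic against normoxic cells, all 6 members had lower RPM, as most miRNAs did. Of the 6, 2 had a ratio below 0.5, both passenger arms. Of all 316 miRNAs listed in both libraries of cells, 27.8% were below 0.5 and 1.27% were above 2, so the share in the family was near the background. The family's median ratio was 0.518, beside 0.612 over all 316 miRNAs.

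The guide arms stood close together. The ratio of miR-152-3p was 0.528 (counting interval 0.518 to 0.538). That of miR-148a-3p was 0.508 (0.495 to 0.522), and that of miR-148b-3p was 0.570 (0.548 to 0.594). These 3 ratios were all slightly above the limit of 0.5. The ratio of the miRNA totals was 0.528, a log2 shift of -0.92, and with values scaled to it the guide arms had ratios of 1.0, 0.963 and 1.08, beside a median of 1.16 over all miRNAs. The direction of miR-148b-3p thus turned on the scale of the miRNA total, and miR-152-3p held the same share of miRNA reads, 0.472%, in hypoxic as in normoxic cells. Divided by the median ratio over all miRNAs instead, miR-148b-3p had 0.932 and miR-152-3p 0.862, both still below 1.

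The passenger arms were spread more widely. miR-152-5p had a ratio of 0.215 (0.178 to 0.258), and only 4 of the 316 miRNAs had a lower one. miR-148a-5p had a ratio of 0.357 (0.305 to 0.416) and 26 miRNAs were lower. miR-148b-5p, with the fewest reads, had 0.531 (0.395 to 0.711), close to its own guide arm. Scaled to the miRNA total the 3 ratios were 0.408, 0.676 and 1.01, so that of miR-152-5p was below 0.5 on either scale.

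**Figure D2:**
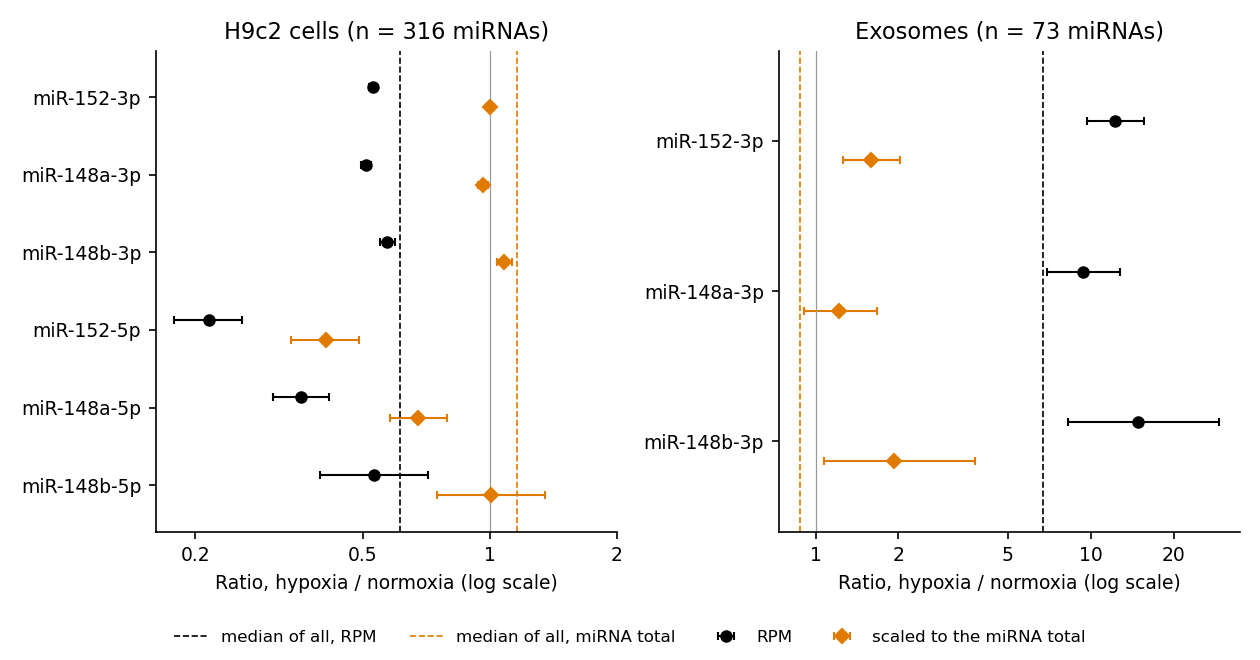
Ratio of hypoxia to normoxia (log scale) in H9c2 cells (left) and exosomes (right), from RPM (black circles) and scaled to the miRNA total (orange diamonds), with 95% counting intervals and with the median of all miRNAs listed in both libraries as dashed lines. In cells the guide arms lay between 0.508 and 0.570 on RPM and miR-152-5p at 0.215, while in exosomes the guide arms lay between 9.35 and 14.8.

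Arm usage within a hairpin does not depend on the RPM scale. The 5p arm of miR-152 made up 0.881% (exact binomial interval 0.746% to 1.03%) of the reads of both arms in hypoxic cells and 2.13% (1.96% to 2.32%) in normoxic cells. For miR-148a the 5p share was 2.59% (2.28% to 2.93%) in hypoxic and 3.65% (3.35% to 3.96%) in normoxic cells. For miR-148b it was 1.94% (1.54% to 2.40%) in hypoxic and 2.08% (1.72% to 2.48%) in normoxic cells. The intervals of the 2 libraries did not overlap for miR-152 and miR-148a, and overlapped for miR-148b. In all 3 hairpins the 3p arm was the guide in both libraries, whereas over all hairpins with both arms listed the median 5p share was 81.3% in hypoxic cells (90 hairpins) and 72.5% in normoxic cells (94 hairpins). The median share of the arm with fewer reads, whichever it was, was 5.09% in hypoxic and 5.19% in normoxic cells. By that share the 3 hairpins came 26th to 35th from the lowest of 90 in hypoxic cells and 36th to 42nd of 94 in normoxic cells.

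The odds of the passenger to the guide arm in hypoxic over normoxic cells were 0.408 (Woolf interval 0.340 to 0.489) for miR-152, 0.702 (0.601 to 0.819) for miR-148a and 0.931 (0.699 to 1.24) for miR-148b. Among 86 hairpins with both arms listed in both libraries, taking the arm with fewer reads in normoxic cells as the minor one, the median odds ratio was 1.03 and 47.7% were below 1. The odds ratio of miR-152 was the second lowest of the 86, after miR-196a (0.389, 0.285 to 0.532). miR-148a came 21st from the lowest and miR-148b 37th. The 4 hairpins with an odds ratio below 0.5 were miR-196a, miR-152, miR-132 and miR-27b, which were named after their values were seen, and the interval of miR-132 reached 0.778. The comparison across hairpins was itself chosen after the values were seen.

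**Figure D3:**
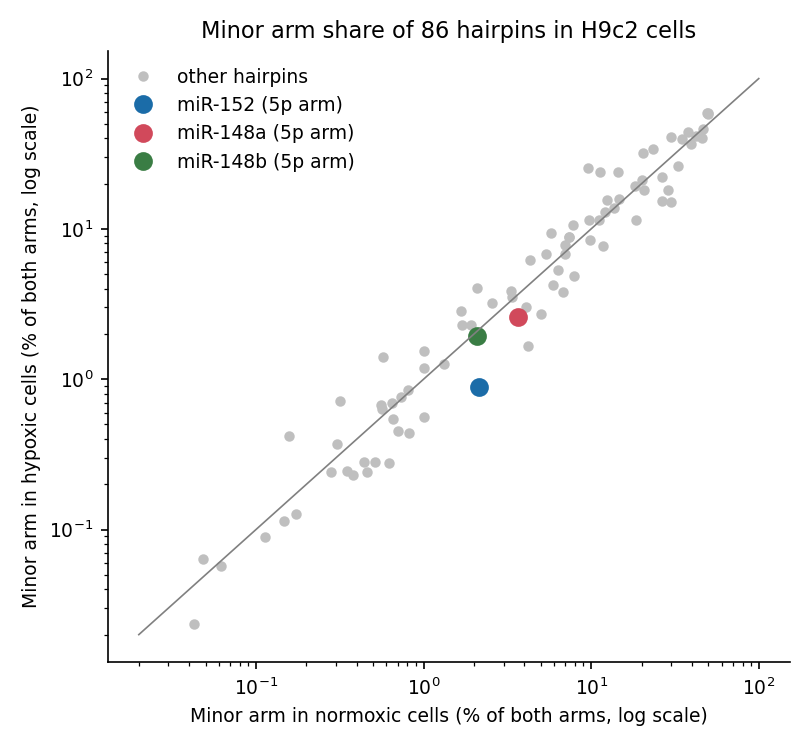
Share of the minor arm in hypoxic cells (vertical) against normoxic cells (horizontal) for 86 hairpins, as percent of the reads of both arms on log scales, with the line of equality. miR-152 lies below the line at 0.881% in hypoxic and 2.13% in normoxic cells, and miR-148b lies on it within its counting interval.

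In hypoxic against normoxic exosomes, all 3 guide arms had a ratio above 2. So did 84.9% of the 73 miRNAs listed in both libraries of exosomes, while 1.37% had a ratio below 0.5, so this count is near the background and is not particular to the family. The median of the guide arms was 12.2, beside 6.73 over all 73 miRNAs.

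miR-152-3p had a ratio of 12.2 (counting interval 9.70 to 15.6) and 54 of the 73 miRNAs had a lower one. miR-148a-3p had a ratio of 9.35 (6.96 to 12.8), with 46 miRNAs lower, and miR-148b-3p 14.8 (8.28 to 29.2), with 61 lower. The 3 intervals overlapped. With 1 RPM added to each value the ratio of miR-148b-3p was 7.94, beside 7.72 for miR-148a-3p and 10.7 for miR-152-3p, so its place above the other guide arms rests on its 12 reads in normoxic exosomes. The ratio of the miRNA totals was 7.69, a log2 shift of 2.94. Scaled to it, the ratios were 1.59 (1.26 to 2.03) for miR-152-3p, 1.22 for miR-148a-3p (0.905 to 1.67) and 1.93 for miR-148b-3p (1.08 to 3.79), beside a median of 0.875 over all 73 miRNAs. On that scale none of the 3 was above 2, and the interval of miR-148a-3p held 1.

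The summed family had a ratio of 11.4 (9.61 to 13.7) in exosomes and 0.521 (0.514 to 0.529) in cells on RPM. Scaled to the miRNA total it had 1.49 (1.25 to 1.78) in exosomes and 0.988 (0.974 to 1.002) in cells. The family was therefore a larger part of the miRNA reads in hypoxic than in normoxic exosomes, with a counting interval above 1, and nearly the same part in both libraries of cells.

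In exosomes against cells, the guide arms had far lower RPM under both conditions, as most miRNAs did. Under normoxia 3 of 3 guide arms had a ratio below 0.5, beside 93.2% of all 73 miRNAs listed in both libraries and 1.37% above 2. Their ratios were 0.00273 for miR-152-3p, 0.00307 for miR-148a-3p and 0.00189 for miR-148b-3p, and the median of all 73 was 0.00304. Under hypoxia 3 of 3 were below 0.5, beside 84.1% of 138 miRNAs, with 5.80% of them above 2. The ratios were 0.0632, 0.0566 and 0.0491 in the same order, and the median of all 138 was 0.0493.

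Scaled to the miRNA total, the order of libraries turned for most guide arms. Under hypoxia miR-152-3p had 1.93 (1.81 to 2.06) times its cell share in exosomes, miR-148a-3p 1.73 (1.57 to 1.90) and miR-148b-3p 1.5 (1.29 to 1.74), beside a median of 1.51 over all 138 miRNAs. Under normoxia the ratios were 1.22 (0.961 to 1.52), 1.37 (1.01 to 1.81) and 0.842 (0.435 to 1.47) in the same order, beside a median of 1.35 over 73 miRNAs. The guide arms thus lay on both sides of the median of the miRNAs that exosomes and cells share.

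Exosomes of conditioned medium can also carry RNA from serum and blood. miR-122-5p, the main miRNA of liver, had 15.1 RPM in hypoxic and 11.1 RPM in normoxic exosomes, a ratio of 1.36 where the guide arms had 9.35 to 14.8. Of 5 blood cell miRNAs, 1 was listed in hypoxic exosomes, miR-451-5p with 1.54 RPM, and 0 in normoxic exosomes, with miR-144-3p, miR-144-5p, miR-150-5p and miR-223-3p at 0 in both. The endothelial miR-126a-3p had 1.62 RPM in hypoxic and 1.94 RPM in normoxic exosomes. Their other arms were not seen there, with miR-122-3p at 0 in all 4 libraries and miR-126a-5p at 0 in both libraries of exosomes. Both miR-122-5p and miR-126a-3p were also listed in the cells. So were miR-451-5p in normoxic cells (1.25 RPM) and miR-150-5p in hypoxic cells (0.753 RPM). miR-122-5p had 5.72 RPM in hypoxic and 14.9 RPM in normoxic cells, and miR-126a-3p had 78.4 and 134 RPM. The part of such sources in the exosome values of the family was not tested.

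The make-up of the family was similar in all libraries. Of the reads of the 3 guide arms, miR-152-3p held 60.0% in hypoxic exosomes (exact binomial interval 57.6% to 62.3%) and 56.1% in normoxic exosomes (47.5% to 64.5%), against 56.3% (55.7% to 56.8%) in hypoxic cells and 56.2% (55.7% to 56.6%) in normoxic cells. miR-148a-3p held 28.8% and 35.3% in hypoxic and normoxic exosomes, and 30.2% and 31.4% in hypoxic and normoxic cells. miR-148b-3p held 11.2% and 8.63% in hypoxic and normoxic exosomes, and 13.5% and 12.5% in hypoxic and normoxic cells. These shares do not depend on the RPM scale. With the passenger arms in the sum, miR-152-3p held 55.4% of the family in hypoxic and 54.7% in normoxic cells, miR-148a-3p 29.8% and 30.5%, and miR-148b-3p 13.3% and 12.2%.

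**Figure D4:**
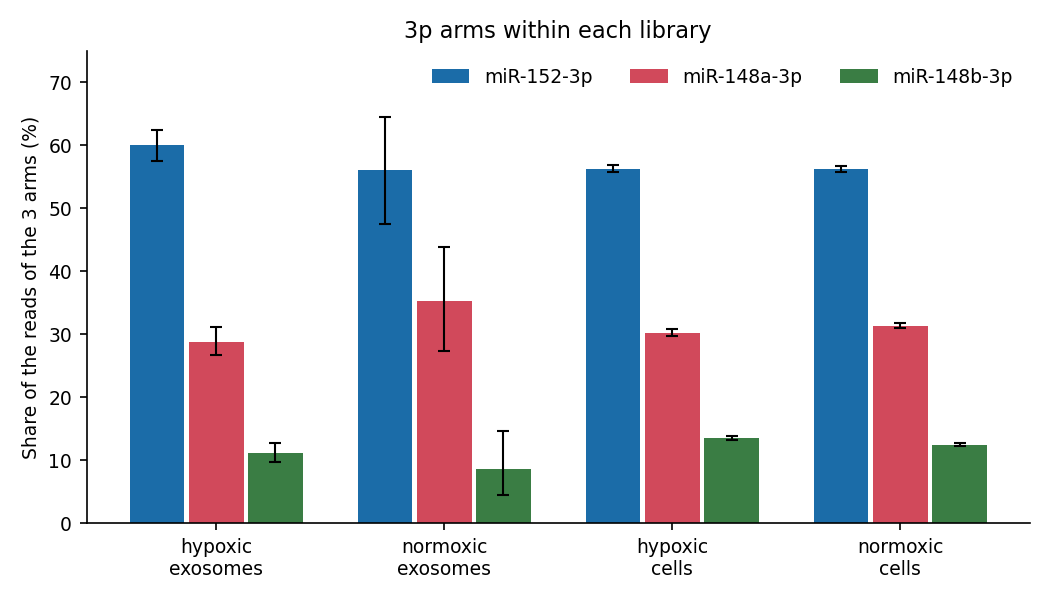
Share of each guide arm in the reads of the 3 arms within each library (percent), with 95% exact binomial intervals, which cover counting error only. miR-152-3p held 56.1% to 60.0% in the 4 libraries, miR-148a-3p 28.8% to 35.3% and miR-148b-3p 8.63% to 13.5%.

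Small differences in make-up had counting intervals that left out 1 in some pairs of libraries. Relative to miR-148b-3p, miR-152-3p was lower in hypoxic than in normoxic cells by an odds ratio of 0.925 (Woolf interval 0.885 to 0.968), and miR-148a-3p by 0.891 (0.849 to 0.935). Relative to miR-148a-3p, miR-152-3p had an odds ratio of 1.04 (1.005 to 1.073) between the same libraries. In hypoxic exosomes against hypoxic cells, miR-152-3p had an odds ratio of 1.29 (1.10 to 1.51) relative to miR-148b-3p and 1.12 (0.999 to 1.25) relative to miR-148a-3p. Between hypoxic and normoxic exosomes no pair was resolved, with intervals of 0.899 to 1.90 for miR-152-3p over miR-148a-3p and 0.440 to 1.55 for miR-152-3p over miR-148b-3p. With 1 library per condition, differences of this size cannot be told apart from differences between libraries.

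The passenger arms were at 0 in exosomes, where few reads of them could be looked for. At the arm ratio of the cells, the guide reads in normoxic exosomes would go with 1.70 reads of miR-152-5p, 1.85 of miR-148a-5p and 0.254 of miR-148b-5p, all under the minimum of 10. In hypoxic exosomes the numbers would be 8.82, 12.7 and 3.65 in the same order. For miR-148a-5p the expected number was above the minimum, by less than its counting error, and for miR-152-5p it was just below. With at most 9 reads unlisted, the 5p share in hypoxic exosomes could reach 0.899% for miR-152, 1.85% for miR-148a and 4.64% for miR-148b, so a lower share than in hypoxic cells was not detectable for miR-152 and miR-148b. For miR-148a this largest share was below the interval of 2.28% to 2.93% in hypoxic cells. It was taken without counting error of its own, however, so a lower share in exosomes was not shown for miR-148a either.

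Among the 71 miRNAs listed in all 4 libraries, the pattern most like that of miR-152-3p was looked for by the Euclidean distance between log2 RPM centred on each miRNA's mean, a description over 4 libraries. miR-145-5p, a miRNA of smooth muscle, was nearest at 0.153, with 32 reads in normoxic exosomes. It had 29.7 RPM in hypoxic and 2.70 RPM in normoxic exosomes, against 474 RPM in hypoxic and 854 RPM in normoxic cells. miR-148a-3p came next at 0.275, and miR-148b-3p was at position 4 with 0.495. The other miRNAs among the 5 nearest outside the family were miR-24-3p, miR-140-3p, miR-185-5p and miR-221-3p, at distances of 0.462 to 0.602.

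miR-145-5p was also the nearest to miR-148a-3p, at 0.211, followed by miR-152-3p and then by miR-185-5p, miR-140-3p, miR-423-3p and miR-25-3p. For miR-148b-3p the nearest was miR-221-3p at 0.477, with miR-152-3p second, and miR-30a-5p, miR-23a-3p, miR-25-3p and miR-145-5p after it. Its distance to miR-148a-3p, 0.663, was the ninth smallest. The guide arms of the family were thus close to one another, but miRNAs of other families were as close.

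Other miRNAs known in human or mouse to repress DNA methyltransferases were set beside the family. In cells, 6 of 6 were listed in both libraries, with a median ratio of 0.636, and 1 of them was below 0.5, miR-29b-3p at 0.469. Over all 316 miRNAs the median was 0.612 and 27.8% were below 0.5, so the list was near the background. miR-29a-3p, a repressor of DNMT3A and DNMT3B, had 2093 RPM in hypoxic and 2167 RPM in normoxic cells. In exosomes 2 of the 6 were listed in both libraries, miR-143-3p with a ratio of 24.3 and miR-185-5p with 8.86, beside a median of 6.73 and 84.9% above 2 over all 73 miRNAs. The same miR-29a-3p had 1.46 RPM in hypoxic exosomes and was listed at 0 in normoxic exosomes.

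Of 9 miRNAs known to repress autophagy genes, 8 were listed in both libraries of cells, with a median ratio of 0.748 and 0 below 0.5, beside the same median of 0.612 and 27.8% over all 316. In exosomes 3 of the 9 were listed in both libraries, miR-30a-5p with a ratio of 22.4, miR-181a-5p with 8.43 and miR-101a-3p with 3.29, of which the last was below the median of 6.73 over all 73. The miRNAs that the study transfected beside miR-152-3p, namely miR-21-5p, miR-378a-3p and let-7i-5p, had a median ratio of 0.553 in cells and 6.73 in exosomes, and they had been picked by the study on these libraries. The guide arms of the family, with 9.35 to 14.8 in exosomes, lay within the range of these lists.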

How the data were processed

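Small RNA-seq was done by the authors on the small RNA fraction of H9c2 cells and exosomes, with 1 library per condition, after adaptor ligation and PCR. The deposited values are RPM on a scale set by the authors for each library. Rnor 6.0 is the genome build in the submitters' processing notes. For the aligner, the counter and the handling of shared reads, the entry is: not given in the sources used here. Reads behind the RPM were recovered as whole multiples of 1 step (within 0.1 read for 100% of values), and no count model was fitted. miRNAs listed in both libraries were compared by the ratio of RPM, with 2 and 0.5 as limits after the study's definition. Intervals of ratios and shares are 95% exact (Clopper-Pearson), and those of odds ratios are Woolf intervals. The scripts were tested on simulated data. Alternatives were 3 other scalings, another threshold, minimums of 50 reads and a pseudocount of 1 RPM. Trimmed means of M values came from code written in Python (30% of ratios and 5% of levels trimmed). The 6 members were named in full, with the 5 nearest miRNAs by pattern, miRNAs sharing a seed, and lists of DNA methyltransferase, autophagy, transfected and marker miRNAs by counts. Members and lists were chosen with earlier results of these data known. Sequences and neighbouring genes are from RefSeq (GRCr8), used for names and sequences, since the deposited table has no coordinates. The software was Python 3.11.15 with pandas 2.3.3, numpy 2.4.6, matplotlib 3.10.9 and scipy 1.17.1.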

Additional observations from a re-analysis of the deposited data

Results flagged for a closer look

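On RPM, hypoxic exosomes were above normoxic exosomes for each of the 3 guide arms, while hypoxic cells were below normoxic cells. The median ratios over all miRNAs had the same directions, 6.73 in exosomes (73 miRNAs) and 0.612 in cells (316 miRNAs). The miRNA totals had log2 shifts of 2.94 in exosomes and -0.92 in cells. The opposite directions were therefore not particular to the family. The log2 ratio of hypoxia to normoxia in exosomes minus that in cells was 4.53 for miR-152-3p (3.61 in exosomes and -0.92 in cells), 4.20 for miR-148a-3p (3.23 and -0.98) and 4.70 for miR-148b-3p (3.89 and -0.81). Scaled to the miRNA total, these differences were 0.67, 0.34 and 0.83. With 1 library per condition, this difference was not tested.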

How the results depend on the processing

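Of the 6 members in cells, 2 had a ratio past 2-fold on RPM. The count was 1 when scaled to the miRNA total, 1 when divided by the median ratio over all miRNAs, 1 by the trimmed mean of M values and 6 with a threshold of 1.5-fold. Scaled to the miRNA total, 37 of all 316 miRNAs in cells were above 2 and 12 below 0.5. At 1.5-fold the median of all 316 on RPM, 0.612, was itself past the limit, so most miRNAs were past it as well. The guide arms in cells had ratios of 0.866 (miR-152-3p), 0.834 (miR-148a-3p) and 0.936 (miR-148b-3p) by the trimmed mean. Of the 3 guide arms in exosomes, 3 were past 2-fold in hypoxia on RPM, 0 when scaled to the miRNA total, 1 with the median ratio, 0 by the trimmed mean and 1 with at least 50 reads in both libraries. Scaled to the miRNA total, 10 of all 73 miRNAs were above 2 and 21 below 0.5. In exosomes against cells under normoxia, 3 were past 2-fold on RPM, 0 scaled to the miRNA total, 0 with the median ratio, 1 with at least 50 reads, and 6 members with 1 RPM added and no filter, while by the trimmed mean all 3 were still past 2-fold (0.396, 0.446 and 0.274 for miR-152-3p, miR-148a-3p and miR-148b-3p). Under hypoxia the 3 became 0 by each of the 3 scalings, and 6 members with 1 RPM added. Under both conditions these 6 included the 3 passenger arms, which were listed at 0 in exosomes. Their ratios came from the added 1 RPM and the value in cells, so they show no lower share in exosomes. The share of all miRNAs past 2-fold with 1 RPM added was not computed. Over all miRNAs scaled to the miRNA total, 31 of 73 were above 2 and 22 below 0.5 under normoxia. Under hypoxia 62 of 138 were above 2 and 44 below 0.5. In exosomes against cells, ratios below 1 turned above 1 when scaled to the miRNA total, to 1.22 for miR-152-3p and 1.37 for miR-148a-3p under normoxia, and to 1.93, 1.73 and 1.5 for miR-152-3p, miR-148a-3p and miR-148b-3p under hypoxia. With the median ratio miR-148a-3p turned to 1.01 under normoxia, and miR-152-3p and miR-148a-3p to 1.28 and 1.15 under hypoxia. By the trimmed mean the last 2 were 1.20 and 1.07. The scalings divide every ratio of a comparison by 1 factor, so they cannot alter shares within the family. With 3p arms only in the sum, miR-152-3p held 56.3% in hypoxic and 56.2% in normoxic cells, and in normoxic cells miR-148a-3p held 31.4% and miR-148b-3p 12.5%. With members of at least 50 reads only, miR-152-3p was 100% of the family in normoxic exosomes. The alternatives for the 5p shares in cells only changed which hairpins entered, so they could not alter the share of a given hairpin. With at least 50 reads in all 4 libraries, 3 of the 5 miRNAs nearest to miR-152-3p were shared with those above. miR-145-5p, the nearest, and miR-185-5p fell out, with 32 and 31 reads in normoxic exosomes, and this alternative could not be run for miR-148a-3p and miR-148b-3p, which have under 50 reads there. With at least 50 reads on both arms, an alternative added after seeing the data, miR-152 stayed second lowest of 60 hairpins by its arm odds ratio. No paired analysis was possible because each condition was 1 library.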
